A study of Drosophila melanogaster with 3 samples.

Results

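Divergent promoters are here stretches of DNA between the start sites of 2 genes that are transcribed away from each other, head to head. The peaks described here are from immunoprecipitation of tagged Methoprene-tolerant (Met), at such promoters. There were 549 of them among 8513 reproducible peaks (6.45%). Direct binding of Met to the DNA was not tested. A peak was taken when its summit lay 1 to 500 bp upstream of the transcription start site (TSS) of a protein-coding gene, that TSS was the nearest annotated one, and a coding TSS of another gene lay on the opposite strand within 1000 bp further upstream. The rule used the position of the summit and the annotation alone. It placed every summit between the paired TSSs, at most 50% of the gap away from the nearer one. For comparison, 1368 peaks lay equally far upstream of a coding gene with no such partner, and are called one-way promoter peaks. Of all 1917 peaks upstream of a coding TSS by this rule, 28.6% were at a divergent promoter. By the same bound on distance, 36.2% of the 13945 coding genes were in a divergent pair, a share of genes and not of peaks. The 549 peaks belonged to 509 gene pairs and named 1016 genes.

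In the compact genome of Drosophila many housekeeping genes share a promoter region with a head-to-head neighbour, and the DNA between such genes is often open and free of nucleosomes. Met is a bHLH-PAS transcription factor and a receptor of juvenile hormone, the hormone that keeps larval insects from metamorphosis. With its partner Taiman it is known to bind E-box-like letters near genes that respond to the hormone.

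Chromatin was immunoprecipitated and sequenced from whole white prepupae of both sexes, with an antibody to green fluorescent protein (GFP). The animals were of a transgenic line in which GFP was fused to the C-terminus of Met, and the labels give no driving promoter, age in hours or number of animals per sample. There was 1 group of 3 biological replicates and no treatment, so the comparisons are between classes of peaks within each replicate. In whole animals, binding in few cells cannot be told apart from weak binding in many. The reproducible list (irreproducible discovery rate, IDR) came from pooled replicates, and replicate lists were cut to the same length, 8513 peaks by signal. Signal is the authors' own value for a peak and is compared by rank within a list only. Read depth is unknown, so no counting error can be given.

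The sequences of 7 divergent promoters are shown as examples. They are 4 of the strongest members, and strong members with an E-box, with a DNA replication-related element (DRE) and with core promoter motif 1. The sequences are from the RefSeq Release 6 assembly (dm6), plus strand, 5′ to 3′. Capitals mark the motif matches named with each sequence. Windows reach 50 bp to each side of the summit, and for CHMP2B, Art3 and RpS25 the whole gap is given with both TSS bases. Nothing is in capitals at Ugalt and CenG1A, whose windows held none of the 11 motifs searched. At CG45544, RpS25 and RpLP0 only the motif each was chosen for is in capitals.
Ugalt–eIF2Bbeta, chrX:2703840-2703940: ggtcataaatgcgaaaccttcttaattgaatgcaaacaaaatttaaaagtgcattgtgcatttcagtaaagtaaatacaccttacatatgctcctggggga
CenG1A–mRpS23, chr2L:13835419-13835519: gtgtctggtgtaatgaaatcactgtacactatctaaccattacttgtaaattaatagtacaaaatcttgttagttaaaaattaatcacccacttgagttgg
CHMP2B–Tcs5, chr3L:5139395-5139619: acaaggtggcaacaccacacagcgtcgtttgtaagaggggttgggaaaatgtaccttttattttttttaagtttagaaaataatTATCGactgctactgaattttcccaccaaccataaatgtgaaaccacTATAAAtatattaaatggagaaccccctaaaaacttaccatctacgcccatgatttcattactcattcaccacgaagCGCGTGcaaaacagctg
Art3–mRpS10, chr3R:15229408-15229665: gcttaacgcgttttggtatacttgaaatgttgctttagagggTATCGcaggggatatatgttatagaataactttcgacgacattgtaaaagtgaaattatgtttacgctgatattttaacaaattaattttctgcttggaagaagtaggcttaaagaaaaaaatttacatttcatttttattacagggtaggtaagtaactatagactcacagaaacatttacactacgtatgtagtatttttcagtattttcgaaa
CG45544–stg, chr3R:29256276-29256376: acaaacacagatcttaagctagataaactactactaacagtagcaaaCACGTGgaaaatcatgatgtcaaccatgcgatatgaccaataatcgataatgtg
RpS25–CG4820, chr3R:11216287-11216535: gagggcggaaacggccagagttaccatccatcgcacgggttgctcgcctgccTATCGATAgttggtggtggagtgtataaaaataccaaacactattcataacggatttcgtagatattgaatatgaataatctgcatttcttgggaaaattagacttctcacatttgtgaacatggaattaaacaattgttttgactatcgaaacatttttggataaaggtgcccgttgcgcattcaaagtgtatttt
RpLP0–CG7130, chr3L:22076020-22076120: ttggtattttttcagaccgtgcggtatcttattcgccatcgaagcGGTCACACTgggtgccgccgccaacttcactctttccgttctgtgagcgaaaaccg
In the CHMP2B gap the capitals are, from left to right, a CGATA match on the minus strand 27 bp from the summit, a TATA box match 16 bp from it, and the C-box on the minus strand 93 bp from it. The Art3 gap held a CGATA match 68 bp from the summit. The summit at CG45544 lay inside its E-box, the summit at RpS25 lay 3 bp from its DRE, and the summit at RpLP0 lay inside its motif 1 match.

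The strongest divergent promoter peak lay between Ugalt, a transporter of UDP-galactose into the Golgi, and eIF2Bbeta, a subunit of the exchange factor for translation initiation factor 2. Its summit (X, 2703890) lay 38 bp upstream of the Ugalt TSS, in a gap of 719 bp. The authors' signal there was 4491 in the IDR list, rank 6, and 1512, 1556 and 1444 in replicates 1, 2 and 3, ranks 6, 5 and 5. The second was between CenG1A, a GTPase-activating protein of Arf, and mRpS23, a protein of the mitochondrial ribosome. It ranked 12 in the IDR list and 18, 12 and 11 in the replicates. Both peaks were among the strongest 20 of each replicate list.

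Further genes of the mitochondrial ribosome were among the pairs that followed. The peak between mRpL41, another mitochondrial ribosomal protein, and CG8079 ranked 21, and 13, 30 and 25 in the replicates. CHMP2B, a subunit of the ESCRT-III membrane complex, and Tcs5, a kinase of tRNA modification, shared the peak of rank 24. In that gap of 224 bp the summit lay 109 bp from the CHMP2B TSS, close to the centre. Art3, a protein arginine methyltransferase, and mRpS10 shared the peak of rank 30, with its summit 114 bp from the Art3 TSS in a gap of 257 bp. The next peak lay between the TSSs of Pal1, an enzyme of neuropeptide amidation, and Pdrg1 (rank 39). Peaks between those of CG3552 and CG3437 (rank 59) and of CG5098 and CG5757 (rank 60) followed. The summits of these peaks lay inside the annotated bodies of Pal1, CG3552 and CG5098. The body of CG3437 lay within that of CG3552.

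The other 12 of the 20 strongest ranked 77 to 145. They lay between CG5611 and Mtl, CG7601 and the complex I assembly factor CIA30, Pyroxd1 and CG10747, the mitochondrial phosphatase PTPMT1 and Hrd3 of ER-associated degradation, and Mnat9 and CG1792. Further pairs were SLIRP2 with the MAP kinase kinase Mkk4, PIG-F of GPI-anchor synthesis with the mitochondrial protease Lon, bves with the oligosaccharyltransferase subunit Stt3A, and CG7841 with Z600, an inhibitor of mitosis in the embryo. The last 3 were CG13390 with CG17294, POSH, a scaffold of JNK signalling, with the nucleolar GTPase Ns2, and CG10413 with CG31789. The summits at Hrd3, bves and CG10413 lay inside the annotated body of that gene. The 20 peaks ranked between 5 and 197 in the replicate lists. By difference in rank the widest spread was at bves–Stt3A, with ranks 197, 104 and 79. By ratio of ranks it was at CG5611–Mtl, with 44, 126 and 128. In 13 of the 20 the paired TSSs were at most 400 bp apart. That is near the share over all 2640 annotated pairs. Of those, 782 had gaps of up to 200 bp and 930 gaps over 200 and up to 400 bp.

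**Figure D1:**
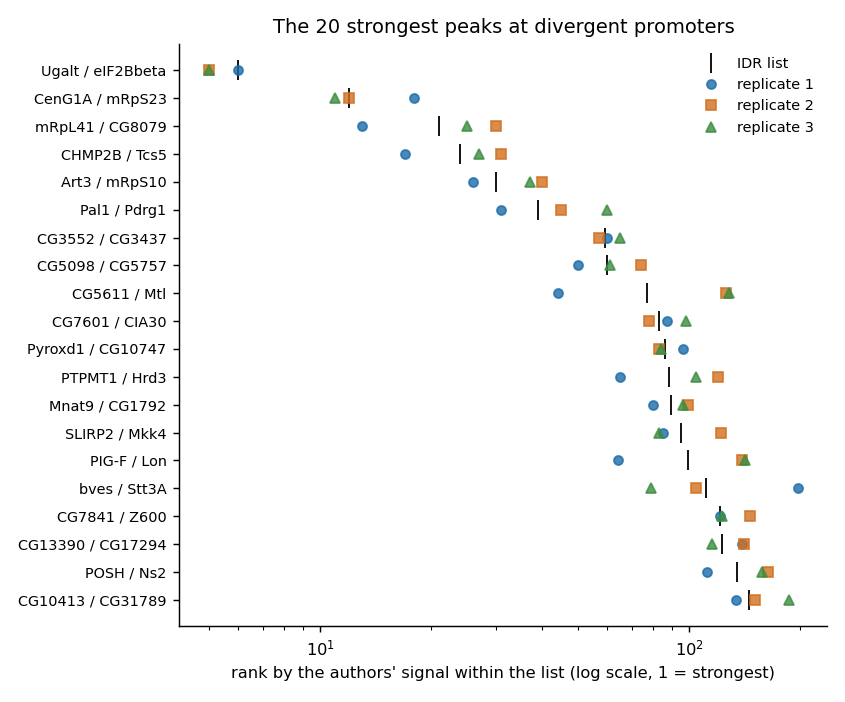
Rank of each of the 20 strongest divergent promoter peaks by the authors' signal in the IDR list (bars) and in replicates 1, 2 and 3 (points), on a log axis where 1 is the strongest peak of the list. Every point lies between rank 5 and rank 197, and Ugalt–eIF2Bbeta is the strongest of these pairs in each list.

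At the other end, the weakest members included CG1824 with Sec16, a protein of ER exit sites (rank 8430), and the cyclin-dependent kinase inhibitor rux with MCTS1 (8483). Signal at divergent promoters ran from 99.0 to 4491 with a median of 265. The median was 217 at one-way promoter peaks and 194 over all IDR peaks. Divergent promoters took 10.1% of the strongest 20% of IDR peaks (172 of 1702), and 8.10%, 6.58%, 3.93% and 3.52% of the steps of 20% that followed. In the replicate lists they took 11.1% ± 1.86 of the strongest 20% and 5.03% ± 0.334 of the weakest (mean ± SD, n = 3). The median signal percentile of a divergent peak was 63.5 ± 1.82 over the replicates and that of a one-way peak 54.6 ± 0.0850. The difference of 8.90 ± 1.76 was above 0 in 3 of 3 replicates (exact paired sign-flip permutation test, 2-sided, p = 0.25, the smallest p that 3 replicates allow). No comparison of this design can pass 0.05 by that test. Among the stronger 4256 peaks of each list, a choice made by signal itself, the difference was -2.46. Among the 100 strongest IDR peaks 15 were at divergent and 30 at one-way promoters. Over the whole list of 8513 IDR peaks, 549 were at divergent and 1368 at one-way promoters.

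Most members overlapped a peak of every replicate. The IDR list was derived from these same replicates, so a high overlap follows in part from how its peaks were chosen. Of the 549, 442 (80.5%) overlapped by at least 1 bp a peak among the strongest 8513 of all 3 replicates, where the share was 75.3% for one-way peaks and the background over all IDR peaks was 73.6%. By replicate the overlap was 95.6%, 88.3% and 92.3% for divergent peaks and 89.3%, 89.2% and 89.6% for one-way peaks. Divergent peaks were thus higher in replicates 1 and 3 and slightly lower in replicate 2. Without replicate 1 the difference in the share found in all others was 1.15 percentage points, against 5.22 with it. Against the whole lists of 30000 peaks the order turned, with 94.0% of divergent peaks (516) and 97.6% of one-way peaks found in all 3. The 33 members that lacked an overlap in some replicate had a median rank of 3387, and the best ranked 352.

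Genes of divergent pairs more often had a summit upstream than one-way genes. Of 5052 coding genes in a divergent pair, 1227 (24.3%) had an IDR summit 1 to 500 bp upstream of a TSS, and of 8893 one-way genes 1087 (12.2%), with a background of 16.6% over all 13945 coding genes. The replicates gave 28.3% ± 2.97 and 12.7% ± 0.401, a difference of 15.6 ± 2.57 percentage points in the same direction in 3 of 3 (exact permutation p = 0.25). A summit between paired TSSs counts for both genes here. When each summit counted only for the gene of its nearest TSS, the shares were 13.3% and 11.1% in the IDR list, and the difference over the replicates was 3.37 ± 0.953 percentage points (exact permutation p = 0.25). Most of the larger difference was thus the counting of 1 summit for both genes. Of the replicate lists, 8.39%, 6.63% and 7.41% of peaks were at divergent promoters.

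The distance between the paired TSSs went with whether a summit was found. The annotation held 2640 divergent pairs with a gap of up to 1000 bp, and 488 of them (18.5%, which is the background for the shares that follow) had an IDR summit between the TSSs. The replicates gave 24.4%, 18.7% and 21.3%. In gaps of 1 to 100 bp 2.11% of 427 pairs had a summit, and in gaps over 100 and up to 200 bp 7.61% of 355. The share was 25.8% of 542 pairs over 200 and up to 300 bp and 27.3% of 388 pairs over 300 and up to 400 bp. It was 24.6%, 21.6% and 20.7% in the 3 wider classes. Per kb of gap, summits were densest in gaps over 200 and up to 300 bp (1.03 per kb) and sparser in shorter gaps (0.372 per kb at 1 to 100 bp) as well as in the widest (0.277 per kb). Gaps over 200 and up to 400 bp (26.5%, 246 of 930 pairs) exceeded gaps of up to 200 bp (4.60%, 36 of 782) in 3 of 3 replicates, by 26.5 ± 2.32 percentage points (31.8% ± 3.65 against 5.29% ± 1.41, exact permutation p = 0.25). These 2 ranges of gap were chosen after seeing the data. The smallest distance between 2 IDR summits on an arm was 199 bp. The median member was 440 bp wide, and 253 of the 549 members had exactly that width. All gaps of up to 400 bp are narrower than this. Whether peak width bears on the shares was not tested.

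**Figure D2:**
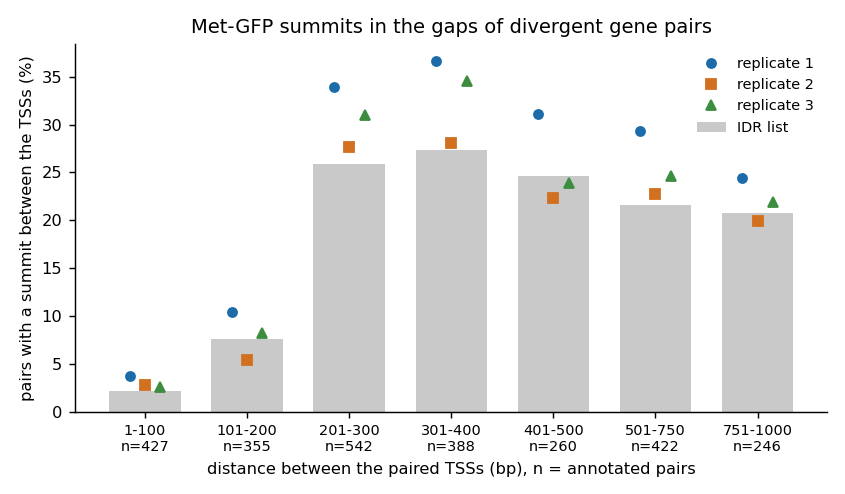
Share of annotated divergent pairs with a summit between the TSSs, by the distance between the TSSs in bp, in the IDR list (bars) and in each replicate (points). In every list the share is under 11% in both classes up to 200 bp and over 19% in all wider classes.

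Signal also varied with the gap. Members in gaps over 200 and up to 300 bp had a median percentile of 72.1 in the IDR list (71.9 ± 4.40 over the replicates). In the neighbouring classes it was 65.4 (66.2 ± 4.18) in shorter and 67.3 (65.1 ± 3.34) in longer gaps, and in gaps over 400 and up to 500 bp 58.1 (55.0 ± 3.57). Mean G+C content at the summit was 44.4% in gaps of up to 100 bp, 30.5% and 30.1% in the classes up to 300 and up to 400 bp, and 35.8% in the widest class. The median gap was 386 bp over members and 299.5 bp over all annotated pairs, and member gaps ran from 52 to 1000 bp. At the bound of the rule, 23 members had gaps over 900 bp with a median signal of 232, and 14 one-way peaks had a partner more than 1000 and at most 1100 bp away with a median signal of 254.

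Summits sat closer to a TSS at divergent promoters. The median distance to the nearest TSS was 110 bp, and 205 bp at one-way promoters. Over the replicates it differed by -93.3 ± 2.52 bp. The gap itself bounds this distance, so it is a description of position only. Within 150 bp of the TSS lay 78.3% of divergent summits (430) and 33.8% of one-way summits (463). The central 50% of the gap held 54.3% of members, and in gaps over 200 and up to 400 bp 178 of 252 (70.6%, and 73.4% ± 2.49 over the replicates). In gaps over 750 bp it held 20.3%. In gaps over 100 and up to 200 bp it held 12 of 28 members (42.9%), and in gaps up to 100 bp 6 of 9. Central placement was thus most frequent in gaps over 200 and up to 400 bp.

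**Figure D3:**
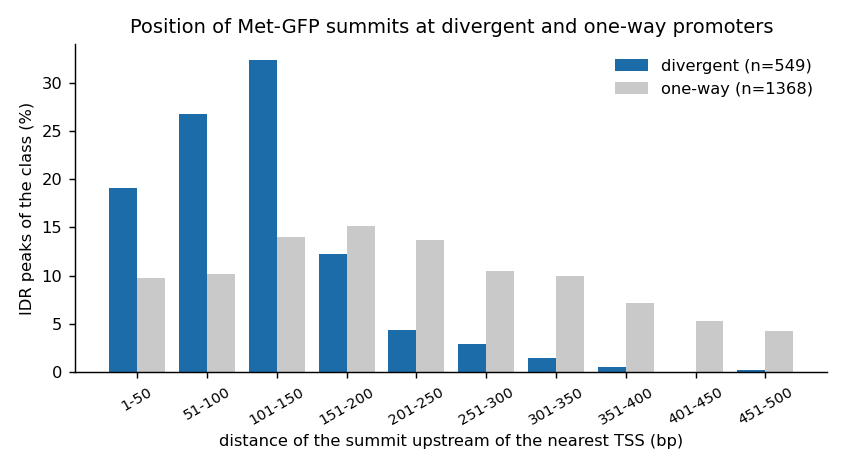
Share of IDR peaks by distance of the summit upstream of the nearest TSS, in classes of 50 bp, for 549 divergent and 1368 one-way promoter peaks. Of divergent summits 78.3% lie within 150 bp, and one-way summits spread over the whole range with 33.8% within 150 bp.

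More than 1 member was found in 39 pairs, and 38 of these had 2 peaks. In 3 of the pairs the summits lay further apart than the gap, at alternative TSSs of the same genes. In 27 of the 39 each gene had a summit nearest to it. The median distance between their summits was 204 bp and in 24 pairs it was under 210 bp, close to the smallest distance found in the list. An example is usp, which encodes Ultraspiracle, the partner of the ecdysone receptor. Its promoter shared with CG4313 held a peak of rank 2038 on the side of usp and a peak of rank 5115 on the other side, 206 bp apart. In each replicate 1 and the same peak overlapped both, ranked 1890, 2953 and 1769. By the annotated gene bodies, 104 of the 549 summits lay inside a gene of their own pair, which can have a further TSS upstream, and 31 (5.65%) inside a gene outside the pair.

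The DNA at divergent summits was poor in G and C. Within 50 bp of the summit mean G+C content was 32.7% at divergent and 35.3% at one-way promoters. Over the replicates it was 32.5% ± 0.277 and 35.6% ± 0.261, a difference of -3.10 ± 0.0920 percentage points with the same sign in 3 of 3 (exact permutation p = 0.25). The order was opposite 400 to 500 bp away, with 46.9% at divergent and 43.2% at one-way promoters. With both classes limited to 200 bp from the TSS the difference at the summit was -5.56, and among the stronger 4256 peaks of each list it was -1.81.

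**Figure D4:**
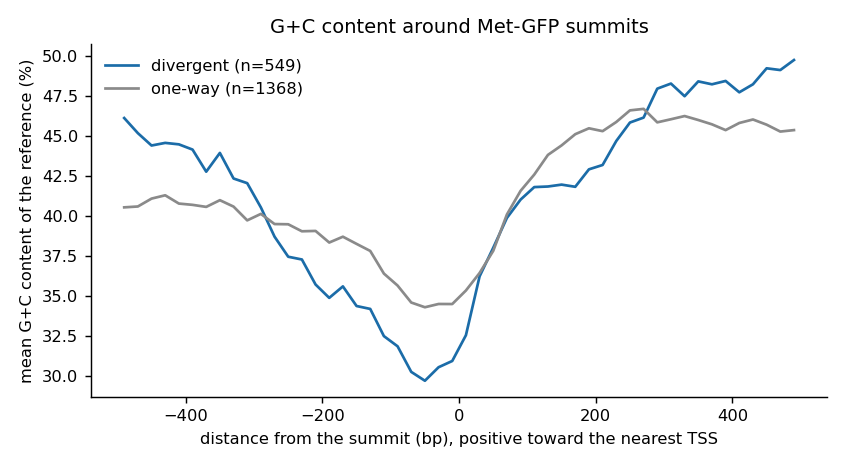
Mean G+C content of the reference in steps of 20 bp around the summit, oriented so that the nearest TSS is at positive distances, for 549 divergent and 1368 one-way promoter peaks. The divergent curve falls to 29.7% at 50 bp from the summit on the side of the partner gene and lies above the one-way curve at both ends.

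Few divergent summits had the letters known from juvenile hormone response elements. All 11 motifs were searched on both strands within 50 bp of the summit, and shares below are for divergent peaks, one-way peaks and the background of all IDR peaks. The E-box CACGTG was at 5 of 549 divergent summits (0.911%), 0.950% of one-way summits and 0.787% of all. The C-box, spelled CACGCG, was at 11 (2.00%), against 1.46% and 1.42%. The bHLH-PAS core GCGTG, which every C-box contains in its minus strand, was at 37 (6.74%), against 8.48% and 7.02%. Over the replicates the differences between divergent and one-way peaks were -0.540 ± 0.399, 0.0870 ± 0.556 and -1.06 ± 1.45 percentage points. The exact permutation test gave p = 0.25, 1 and 0.25, and 0.344, 1 and 0.344 after Benjamini-Hochberg adjustment over the 11 motifs. Without replicate 2 the E-box difference was -0.320 and that of the core -0.219. Without single replicates the C-box difference ran from -0.215 to 0.332. None of the 20 strongest members had an E-box or C-box in this window. With shares of 0.911% and 2.00% over all 549 members, 20 peaks are too few to show a difference.

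The 5 members with an E-box were at CG45544 and stg, the Cdc25 phosphatase string (rank 374), Dus2 and Fbxl4 (733), CG12321 and the Mediator subunit MED17 (1527), Trm1 and CG5446 (5867) and Hmgs, the HMG-CoA synthase of the mevalonate pathway, and Vha44 (7782). The strongest with a C-box were at the mechanosensitive channel Piezo and Acbp1 (463), RpS19a and Rok (1869), RpS21 and CG3104 (2435), CtsB and amrt (3262) and CG15771 and lin-52 (3405). The CG45544–stg peak ranked 505, 398 and 308 in the replicates, and the Piezo–Acbp1 peak 607, 646 and 279.

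Core promoter elements were compared in the same way. The DRE, spelled TATCGATA, was at 24 divergent summits (4.37%), 1.68% of one-way summits and 0.728% of all IDR summits. Over the replicates the share was 4.79% ± 1.12 and 1.66% ± 0.553, higher by 3.13 ± 0.702 percentage points in 3 of 3. Its core CGATA, counted wherever it lay, inside a DRE too, was at 111 (20.2%), against 15.6% and 12.1%. Motif 1, spelled GGTCACACT, was at 7 (1.28%), against 0.658% and 0.364%. The TATA box letters TATAAA were at 150 (27.3%), against 20.8% and 22.4%, with a difference of 7.40 ± 0.916 percentage points over the replicates. The GAGA element, spelled GAGAGAG, was rarer, at 3 summits (0.546%), against 3.14% and 1.61%, with a difference of -2.52 ± 0.753. For DRE, CGATA, motif 1, TATA box and GAGA element the exact permutation test gave p = 0.25 and the adjusted p was 0.344.

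The initiator letters TCAGTT were at 33 divergent summits (6.01%), against 5.85% and 7.15%. The Zelda site, spelled CAGGTAG, was at 4 (0.729%), against 0.658% and 0.423%. The GATA site, spelled AGATAA, was at 40 (7.29%), against 6.65% and 8.11%. Over the replicates these differed between the classes by -0.118 ± 0.285, 0.0660 ± 0.258 and -0.780 ± 0.529 percentage points, with adjusted exact permutation p of 0.611, 0.825 and 0.344. No motif of the 11 was found at 238 members (43.4%).

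Divergent gaps in general gave shares on either side of these. At the midpoints of all 2640 annotated gaps, with or without a peak, 4.89% of windows of the same length held a DRE, 23.8% the CGATA letters, 22.95% the TATA box letters, 1.29% the GAGA element and 2.16% motif 1. At windows 110 bp upstream of 19253 coding TSSs 1.66% held a DRE, 17.9% the CGATA letters and 16.7% the TATA box letters. The GAGA element was in 4.36% of these upstream windows and motif 1 in 0.789%. The E-box was in 0.795% of midpoint windows and 1.05% of upstream windows. For the C-box the shares were 1.67% and 1.97%, and for the bHLH-PAS core 7.42% and 9.94%. Among gaps over 200 and up to 400 bp, searched over their whole length, the DRE was in 23.2% of those with an IDR summit (57 of 246) and in 17.1% of those without (117 of 684), with a difference over the replicates of 6.30 ± 0.746 percentage points. The C-box was in 5.28% (13) and 2.92% (20), and the E-box in 2.85% (7) and 1.32% (9). Over the replicates these differed by 0.922 ± 0.225 and 1.45 ± 0.135 percentage points. The bHLH-PAS core was in 24.8% (61) and 19.2% (131), with a difference of 3.66 ± 1.30. Motif 1 (5.28% and 5.56%), the initiator (13.01% and 18.3%) and the GAGA element (0.813% and 2.19%) were less frequent in gaps with a summit. Mean G+C content of the gaps was 33.9% with and 34.4% without a summit. Each of these 8 differences kept its sign in 3 of 3 replicates (exact permutation p = 0.25, adjusted 0.375 over the 12 measures). The other 4 did not. The TATA box letters were in 48.8% of gaps with a summit and 54.7% of those without, with a difference of -1.69 ± 1.73 over the replicates, and the CGATA letters in 61.0% and 62.7%, with a difference of 3.16 ± 2.88 (exact permutation p = 0.5 and adjusted 0.545 for both). The Zelda and GATA sites differed by -0.235 ± 0.264 and -0.793 ± 2.02.

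Genes of cytoplasmic ribosomal proteins were often at these peaks. Of 86 such genes 53 were in a divergent pair, and 31 of the 53 (58.5%) had a member peak, against a background of 20.1% over all 5052 genes of divergent pairs (1016). The replicates gave 75.5%, 50.9% and 62.3% for the ribosomal protein genes and 23.1% ± 2.87 for all. Their 36 peaks ranked from 311, at RpS27 and the nucleoporin Nup37, downward, with the next at CG7943 and RpL32 (391) and at RpL34b and CG8132 (554). In the replicates the RpS27–Nup37 peak ranked 216, 533 and 338. The summit was nearest to the ribosomal protein gene in 29 of the 36.

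Peaks at ribosomal protein genes were also placed differently from the other 513 members. Their median distance to the nearest TSS was 49.5 bp against 112 bp, and mean G+C content 41.8% against 32.1%. The central 50% of the gap held 25% of them against 56.3%. The DRE was within 50 bp of 7 of the 36 (19.4%) and 17 of the 513 (3.31%), and the C-box of 4 (11.1%) and 7 (1.36%). Over the replicates the DRE share was 26.3% ± 1.14 and 3.34% ± 0.992. No test is given, since the list was chosen with earlier results of these data known. Among the strongest members with a DRE were RpS25–CG4820 (rank 984), RpL19–CG3776 (1124), RpL34a–Trmt61 (1533) and CG4598–CG5885 (1732), and 3 of these 4 pairs hold a ribosomal protein gene. One pair named after its values were seen is RpL13 with Dref, the gene for the factor that binds the DRE (rank 987), whose window held CGATA but not the full DRE.

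Other gene groups of translation and mitochondria lay above the same background by smaller margins. Genes of mitochondrial ribosomal proteins had a member peak in 19 of 58 (32.8%), with the 3 strongest at mRpS23, mRpL41 and mRpS10 given above. The summit was nearer to the partner in 10 of these 19 peaks, among them those at mRpS23 and mRpS10. Genes of the respiratory chain and ATP synthase had one in 15 of 44 (34.1%), led by ND-ASHI with the fumarase Fum1 (rank 308), TppII with ND-MWFE (874) and CG1632 with ND-75 (895). In 10 of these 15 peaks the summit was nearer to the partner. Translation factors (of initiation, elongation and release) had one in 9 of 27 (33.3%), after eIF2Bbeta at CG18428–eIF4EHP (313) and eIF5B–CG46463 (1562). The replicate shares were 36.2% in each of the 3 for mitochondrial ribosomal proteins, 34.8% ± 7.31 for the respiratory chain and 37.0% ± 3.70 for translation factors.

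**Figure D5:**
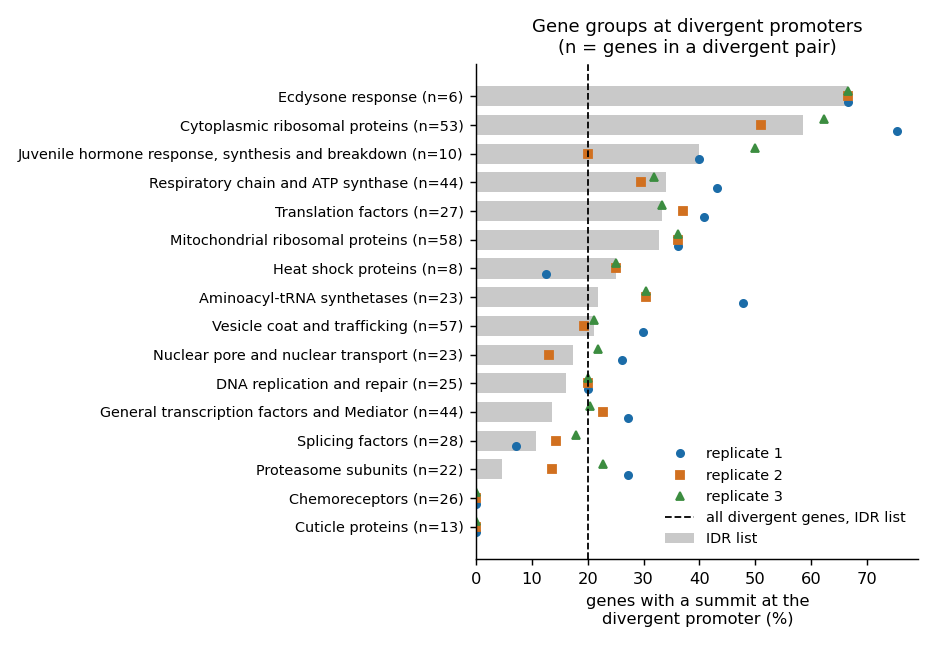
Share of the genes of each list that lie in a divergent pair and have a summit at that promoter, in the IDR list (bars) and in each replicate (points), with the share over all genes of divergent pairs as a dashed line (20.1%). Cytoplasmic ribosomal protein genes lie right of the line in every list, and chemoreceptor and cuticle genes are at 0.

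Several housekeeping groups lay near or below the background in the IDR list. Genes of vesicle coats and trafficking had a member peak in 12 of 57 (21.1%), led by Vps33B–Fur1 (rank 158), alphaCOP–CG13919 (212) and Vps15–CG8420 (3000). Aminoacyl-tRNA synthetases had one in 5 of 23 (21.7%), led by Nmda1–AspRS (1320), ArgRS-m–CG17816 (2805) and O-fut1–CysRS-m (4429). In the replicates their share was 47.8%, 30.4% and 30.4%, above the 23.1% ± 2.87 of all genes of divergent pairs. Nuclear pore and transport genes had one in 4 of 23 (17.4%), at RpS27–Nup37, Kap-alpha3–Son (957), Lint-1–Ran (5676) and 1 more pair. DNA replication and repair genes had one in 4 of 25 (16%), at PolD2–CG13933 (400), between the helicase subunit Mcm2 and RPA1 (2107) and at CG10366–PCNA2 (3798). General transcription factors and Mediator had 6 of 44 (13.6%), led by Rev1–MED30 (379), elm–MED27 (651) and Polr2B–140up (1168), and 27.3%, 22.7% and 20.5% in the replicates. Splicing factors had 3 of 28 (10.7%), at Sf3b6–Tnpo (1551), snRNP-U1-C–gukh (2083) and l(1)G0469–Prp16 (5952). Proteasome subunits had 1 of 22 (4.55%), at Rpn13–CtsL1 (4360), but 27.3%, 13.6% and 22.7% in the replicate lists, so the low IDR share was not matched there.

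The hormone lists held 6 and 10 genes of divergent pairs, and the shares that follow stand beside the 20.1% of all genes of divergent pairs (23.1% ± 2.87 over the replicates). Of 28 ecdysone response genes 6 were in a divergent pair and 4 of these had a member peak, in the IDR list and in each replicate list (66.7%). The strongest was between Hdc and Hr3, a nuclear receptor induced by ecdysone (rank 337, and 246, 384 and 422 in the replicates). The others were at the ecdysone-inducible ImpE3 (1537), usp (2038) and tai (2914). The summits at Hdc–Hr3, ImpE3 and usp lay inside a gene outside the pair, as did 5.65% of all members. Of 20 genes of juvenile hormone response, synthesis and breakdown 10 were in a divergent pair and 4 had a member peak (40%, and 40%, 20% and 50% in the replicates). They were Hsp83, a chaperone of Met (548), tai, which encodes the partner Taiman and is in both lists, the epoxide hydrolase Jheh3 (6940) and Hmgs (7782). The tai peak lay 94 bp from the TSS in a gap of 264 bp shared with CG9586, and ranked 3018, 4276 and 2383 in the replicates. Of 8 heat shock genes in a divergent pair 2 had a peak (25%), Hsp83 and the mitochondrial chaperone Hsc70-5 (905). None of 13 cuticle protein genes and none of 26 chemoreceptor genes in a divergent pair had one, in the IDR list or in any replicate list.

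By chromosome arm, the members were spread over 2L (104), 2R (83), 3L (132), 3R (140), X (88) and 4 (2). Of the annotated pairs, 23.2% on 3L and 13.7% on 2R had a summit, and 18.9%, 19.4% and 17.2% on 2L, 3R and X. In replicate 3 the share was 23.8% on 3L and 24.4% on 3R, so 3L was not highest in every replicate. Chromatin accessibility, transcription of the paired genes and which gene of a pair responds to Met were not tested, since the lists hold summits and signal alone.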

How the data were processed

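ChIP-seq for Met-GFP was done on 3 biological replicates of white prepupae, with DNA sheared to 200 to 800 bp, per the labels. The deposited lists give for each peak a signal value, used by rank within a list only, and a −log10 q-value, not used for ranking; both are as the authors' caller wrote them. Other deposited columns held positions and summit offsets. Relaxed lists of 30000 peaks per replicate and for pooled replicates led to the IDR list, per the deposited text listings. For the aligner, peak caller and versions, names were not given in the sources used here. Control reads and dm3 lists were not used. Depth is unknown.

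Peaks on 6 arms were placed against Ensembl release 115 TSSs in dm6, 1-based, with sequence from RefSeq Release 6 (Python 3.11.15, numpy 2.4.6, pandas 2.3.3, scipy 1.17.1). Replicate lists were cut to the same length, 8513 peaks by signal, of which 8513, 8497 and 8506 were on these arms. Ties between equally near TSSs concerned 19 members. Means and SDs are over replicates. The only test was an exact paired sign-flip permutation over them, made in 28 main comparisons and repeated under the alternatives. The peak classes and motif counts were tried on simulated peaks and sequences. The permutation test itself was tried on short made-up sets of differences only. Replicates are separate biosamples in the labels.

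Named genes are those of the 20 strongest members, up to 3 pairs of every gene list, pairs with an E-box, C-box or DRE (at most 5 of each) and the 3 weakest. A few genes that the rule names are not reported here. Sequences are of 7 members. Members, gene lists and motifs were chosen with earlier results of these data known. Gene lists are symbol patterns and overlap. Alternatives were the stronger 4256 peaks, paired TSSs up to 500 bp apart, summits within 250 bp, the 5′-most TSS of each gene, a motif window of 100 bp to each side, RefSeq genes, other overlap rules and leaving out each replicate. Nearest-TSS counting, both classes within 200 bp of the TSS, the classes of gap, and alternatives for summit position, pairs by gap and gene lists were added after seeing the data.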

Additional observations from a re-analysis of the deposited data

How the results depend on the processing

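Of 144 alternative values over 20 results, 131 counted as kept, 11 reversed direction, and 2 kept their direction but moved in size. Kept means the same direction. For overlap, summit position and gene lists it also means within the SD of the main value, and for member counts within 1.5 times. Leaving out a replicate cannot reverse a mean difference that has the same sign in all 3 replicates. Since no p can fall below 0.25, no value could change its side of 0.05. Of the 131, 31 changed in size by over 1.5 times. With 100 bp to each side the DRE difference rose from 3.13 to 6.34, CGATA from 7.30 to 14.9 and motif 1 from 0.774 to 2.28, GAGA went from -2.52 to -6.54 and the initiator from -0.118 to -2.45. The E-box difference fell in size from -0.540 to -0.0366 there, with signs that differed between replicates (exact permutation p = 1). Motif 1 was at 0.228 among the stronger 4256 peaks and 0.421 within 200 bp of the TSS (both p = 0.5 by the exact permutation test). Among the stronger peaks GAGA was at -1.15, G+C content at -1.81 (main -3.10) and the bHLH-PAS core at -0.340 (main -1.06, exact permutation p = 1). Nearest-TSS counting took the difference in genes with a summit from 15.6 to 3.37. RefSeq genes gave 549 members too, and identical values for the differences between peak classes. That alternative was thus no separate check of those differences. Among the stronger 4256 peaks chosen by signal itself, the difference in median percentile reversed to -2.46 (8.90 over all peaks), the initiator difference to 0.365, and the excess over 50% in the centre of gaps over 200 and up to 400 bp rose from 23.4 to 28.4 percentage points. The initiator difference (-0.118) also reversed to 0.0731 with gaps up to 500 bp and to 0.278 within 200 bp of the TSS. The C-box difference (0.0870) reversed to -0.337 with gaps up to 500 bp, -0.274 with 100 bp to each side, -0.651 within 200 bp of the TSS, and ran from -0.215 to 0.332 with a replicate left out. The GATA difference (-0.780) reversed to 0.516 within 200 bp of the TSS. The Zelda difference (0.0660) ran from -0.0754 to 0.177 with a replicate left out. The difference in overlap reversed from 5.22 to -3.60 percentage points with whole relaxed lists, and ran from 1.15 to 7.42 with a replicate left out. The cause of these changes was not tested. The limit of 200 bp from the TSS, the range of gaps over 200 and up to 400 bp, and the alternatives for summit position, pairs by gap and gene lists were chosen after seeing the data. No paired analysis was possible because the samples form 1 group, so samples could not be paired between groups; peak classes were paired within each replicate. With 3 replicates no p below 0.25 can be reached, and the unknown depth limits what an absent peak means.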
